A study of Homo sapiens with 12 samples.

Results

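The genes described here include enzymes of serine synthesis and one-carbon metabolism and genes of the amino acid stress response around the transcription factor ATF4. Some genes of the endoplasmic reticulum are also among them. Membership in the list was not taken to mean that ATF4 controls a gene. The list was given by name and holds 50 genes. Each gene was represented by the probe set with 1 gene symbol that had the highest mean over the 12 arrays, which left 49 members among 19775 measured genes. MARS1, the methionyl-tRNA synthetase, was not analysed here because each of its probe sets carries more than 1 symbol. The cells were IGROV-1, an established ovarian carcinoma line of human origin, whose RNA was hybridised to Affymetrix U133 Plus 2.0 arrays in 4 groups of 3. Parental cells were untransfected. Mock cells carried a plasmid with a scrambled RNA and were kept as a pool of clones. The shCXCR4 I and shCXCR4 II cells (line I and line II) carried plasmids with different short hairpin RNAs against CXCR4, a chemokine receptor, and were selected as individual clones. The 3 transfected groups had been transfected with a lipid reagent and selected from 48 hours on in 4 µg/ml puromycin for 30 days. For every array 6 µg of total RNA was labelled. Knockdown of CXCR4, the origin of a line from individual clones and the comparison with a pool cannot be told apart in this design.

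Cells make serine from a glycolytic intermediate by a short pathway that begins with PHGDH and goes on through PSAT1 and PSPH, and the SHMT and MTHFD enzymes pass its carbon to glycine and folate. When amino acids run short or proteins misfold in the endoplasmic reticulum (ER), kinases phosphorylate the initiation factor eIF2alpha, general translation falls and ATF4 protein is made in greater amount. ATF4, often paired with a C/EBP protein, then raises transcription of genes for amino acid synthesis, amino acid transport and tRNA charging, and of regulators such as DDIT3 and TRIB3. ATF4 is controlled largely at translation, which arrays of RNA do not measure.

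The DNA element read by C/EBP and ATF4 dimers is shown first, because several members carry it close to an annotated transcription start. The RefSeq promoter table (build GRCh38.p14, windows of 250 bases before to 50 after a start) held 42 of the 49 measured members. PSPH, SHMT2, ALDH1L2, PYCR1, NUPR1, SLC7A11 and YARS1 were not in it. The letters TGATGNAA, searched on both strands, occurred in 15 of these 42 members (35.7%) and in 1217 of 27305 genes in the table (4.46%). A gene with several annotated starts counted if any of its windows held the letters. By window, they occurred in 17 of 68 windows of members (25%) and in 1270 of 35116 in the table (3.62%). The list was drawn up around the ATF4 response, so these shares describe it and are not a test. The sequences below are 5′ to 3′ on the strand of the gene, with the match in capitals. A match on the opposite strand shows as the reverse complement. ASNS and CHAC1 are shown as members that were higher in each line than in Mock, AARS1 and GARS1 as synthetase genes that were higher in line II, and CEBPG, SLC1A5 and IARS1 as members that passed no test. ASNS, GARS1, CEBPG and SLC1A5 also have another window, at another annotated start, without a match. ASNS lies at chr7:97872453-97872492 (minus strand), CHAC1 at chr15:40953246-40953285 (plus), AARS1 at chr16:70289670-70289709 (minus), GARS1 at chr7:30594829-30594868 (plus), CEBPG at chr19:33374055-33374094 (plus), SLC1A5 at chr19:46784888-46784927 (minus) and IARS1 at chr9:92293698-92293726 (minus).
ASNS: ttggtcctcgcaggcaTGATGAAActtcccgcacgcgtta
CHAC1: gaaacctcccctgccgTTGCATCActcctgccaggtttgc
AARS1: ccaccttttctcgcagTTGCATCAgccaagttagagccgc
GARS1: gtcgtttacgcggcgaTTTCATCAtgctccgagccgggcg
CEBPG: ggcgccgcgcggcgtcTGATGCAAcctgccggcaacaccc
SLC1A5: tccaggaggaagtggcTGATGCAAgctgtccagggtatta
IARS1: ccgcattttcagcgcgTTGCATCAcctcc

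All values below are log2 values as deposited, differences are log2 differences with limma's standard error (SE), and a gene passed the test at a Benjamini-Hochberg adjusted p under 0.05 over all 19775 genes. The labels do not say that the 3 arrays of a group came from separate cultures, so a p-value here reflects the scatter among the arrays alone, and that scatter may be technical. In RNA from whole cultures, fewer cells with a transcript and less of it per cell cannot be told apart. CXCR4 fell by 1.49 (SE 0.09, limma adjusted p = 6.11e-08) in line I and by 1.96 (SE 0.09, limma adjusted p = 4.38e-09) in line II against Mock. Array medians lay between 4.25 and 4.39, arrays of a group correlated at 0.996 to 0.998 over probe sets, and the 3′ to 5′ difference of GAPDH, a sign of RNA quality, was 0.02 to 0.10 per array, and that of ACTB 0.36 to 0.60, with values in each group that overlapped those of the others. Mock arrays had a wider interquartile range (3.38 to 3.43) than those of the other groups (3.19 to 3.31). The mean of 10 epithelial and ovarian markers was 8.49 to 8.89 per array, although MUC16, a marker of ovarian carcinoma, was dim, with a mean over all arrays of 2.98. The means of 4 leukocyte, 5 fibroblast and 4 endothelial markers were 3.75 to 4.11, 4.29 to 4.60 and 4.65 to 4.95. Of these, fibroblast COL1A1 and endothelial PECAM1, with means over all arrays of 6.78 and 6.48, lay above the ovarian marker WT1 (6.32). The other markers of these cell types lay below it.

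Against Mock, PHGDH and ASNS stood out: each was at least 2.34-fold higher in either line, and no other member reached a 2-fold change in these comparisons. The regulators TRIB3, DDIT3, CHAC1 and ATF4 rose by less, and CTH, CEBPB, XPOT and DDIT4 fell. In line I, 19 of 49 members rose (38.8%) where 9.97% of all genes did, and 6 fell (12.2%) where 13.6% of all genes did. In line II, 14 rose (28.6%) beside 11.0% of all genes, and 6 fell (12.2%) beside 15.1%. Brighter genes as a whole fell more often. In a fit of the 8348 genes with a mean log2 of at least 6, 1152 rose and 2938 fell in line I. In line II 897 rose and 3051 fell. In that fit 16 members rose and 6 fell in line I, and 16 rose and 8 fell in line II. Members with a mean below 6 were not in it. In line I the 49 members had a median difference of 0.05, and in line II of 0.09, beside 0.02 and 0.02 over all genes. Both lines were compared with the same Mock arrays. With each array centred on its median, 13 members rose and 9 fell in line II, so that the share of higher members among those that passed was 59.1% and not 70%. Centring moved the counts over all 19775 genes as well. In line II it gave 1150 higher and 4259 lower genes, where the main fit gave 2179 and 2989. That centring also ended the line I calls of PYCR1, NUPR1, SLC1A4, SLC38A2, SLC6A9 and SARS1 (adjusted p 0.0582 to 0.143) and the line II call of GARS1 (0.119).

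**Figure D1:**
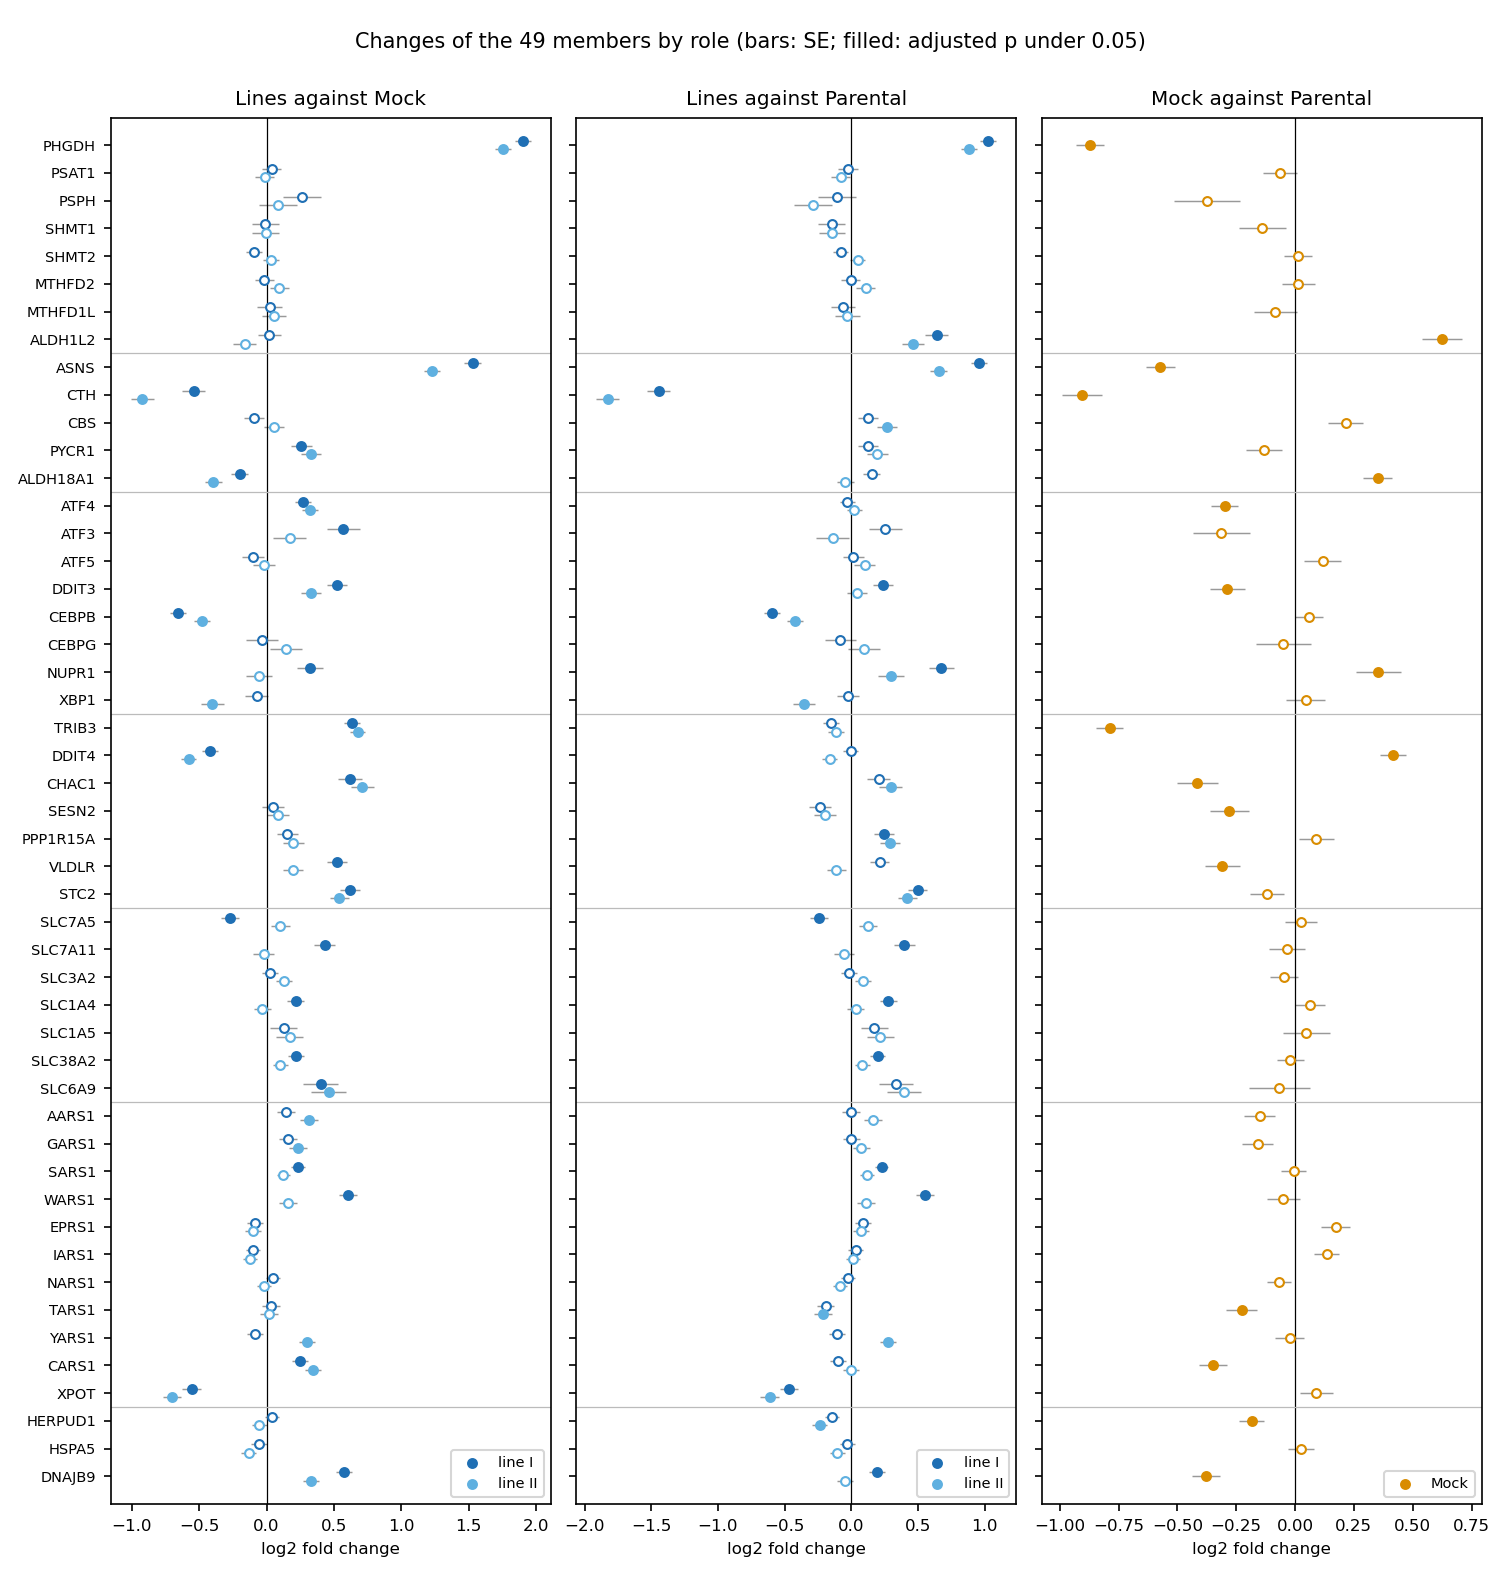
Log2 difference of each of the 49 members with limma's standard error, in both lines against Mock, in both lines against Parental, and in Mock against Parental. Filled points passed an adjusted p of 0.05. PHGDH (1.90 and 1.75) and ASNS (1.53 and 1.23) lie far to the right of the other members in the comparison with Mock.

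Among the 8 enzymes of serine synthesis and one-carbon metabolism, PHGDH alone passed against Mock on the representing probe sets, which makes 12.5% higher in each line beside 9.97% and 11.0% of all genes. PHGDH, which catalyses the first and committed step, read 7.53, 7.36 and 7.45 in Parental, 6.58, 6.52 and 6.63 in Mock, 8.49, 8.47 and 8.48 in line I, and 8.37, 8.33 and 8.30 in line II. No array of a group overlapped another group, and Mock was the lowest and line I the highest. The difference from Mock was 1.90 (SE 0.06, limma adjusted p = 2.34e-10) in line I and 1.75 (SE 0.06, limma adjusted p = 3.63e-10) in line II. PHGDH fell by 0.87 in Mock against Parental (limma adjusted p = 4.88e-07), so the rise against Parental was smaller, at 1.03 (7.85e-08) for line I and 0.88 (3.47e-07) for line II. A brighter probe set that lists PHGDH together with other symbols was not used. PSAT1, the aminotransferase of the next step, differed from Mock by 0.04 (line I) and -0.02 (line II), each with an SE of 0.07, and its array values ran only from 11.81 to 12.12.

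PSPH, the phosphatase of the last step, gave different answers on different probe sets. The representing set, 205048_s_at, differed from Mock by 0.26 (line I) and 0.08 (line II), each with an SE of 0.14, and passed no test. On 205194_at the Parental values were 9.44, 9.40 and 9.50, the Mock values 8.14, 8.31 and 8.04, the line I values 8.72, 8.81 and 8.79, and the line II values 8.59, 8.83 and 9.01. On that probe set Mock was the lowest group and Parental the highest without overlap, and the lines overlapped each other. With p adjusted over all probe sets with 1 symbol, the differences on it were 0.61 in line I (limma adjusted p = 0.000717), 0.65 in line II (0.00055) and -1.29 in Mock against Parental (1.53e-06). Another PSPH set, 244819_x_at, with a mean of 2.75, fell by 0.48 in line I (0.0136). Of the 49 members, 32 had several probe sets, and in 13 of these the sets differed in call in at least one line against Mock.

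Among the folate enzymes, SHMT2 and MTHFD2, which work in mitochondria, differed from Mock by at most 0.09 in size in either line on their representing probe sets and passed no test there in any of the 6 comparisons between groups. For SHMT2 this depends on the probe set. Its representing set is 214096_s_at, and the dimmer 214095_at, with a mean of 7.08, was 0.27 higher in line II than in Mock (limma adjusted p = 0.0163) and 0.25 higher than in Parental (0.0287). The remaining SHMT2 set, 214437_s_at, differed from Mock by 0.02 in line II (0.867). SHMT1, the cytosolic counterpart of SHMT2, and MTHFD1L, which releases formate in mitochondria, were represented by dim probe sets with means of 4.28 and 3.18. For each of these genes 2 brighter probe sets exist on the array, which were not used because they list the gene together with other symbols. The low values therefore come with the rule of a single symbol and do not give the level of these genes. ALDH1L2, a mitochondrial dehydrogenase that oxidises formyl-folate, read 3.98, 3.98 and 3.82 in Parental, 4.56, 4.41 and 4.67 in Mock, 4.69, 4.49 and 4.53 in line I, and 4.27, 4.43 and 4.47 in line II. The Parental arrays lay below all others, and the 3 transfected groups were close together. ALDH1L2 was 0.62 higher in Mock than in Parental (SE 0.09, limma adjusted p = 0.000256) and differed from Mock by 0.02 (0.9, line I) and -0.16 (0.186, line II).

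**Figure D2:**
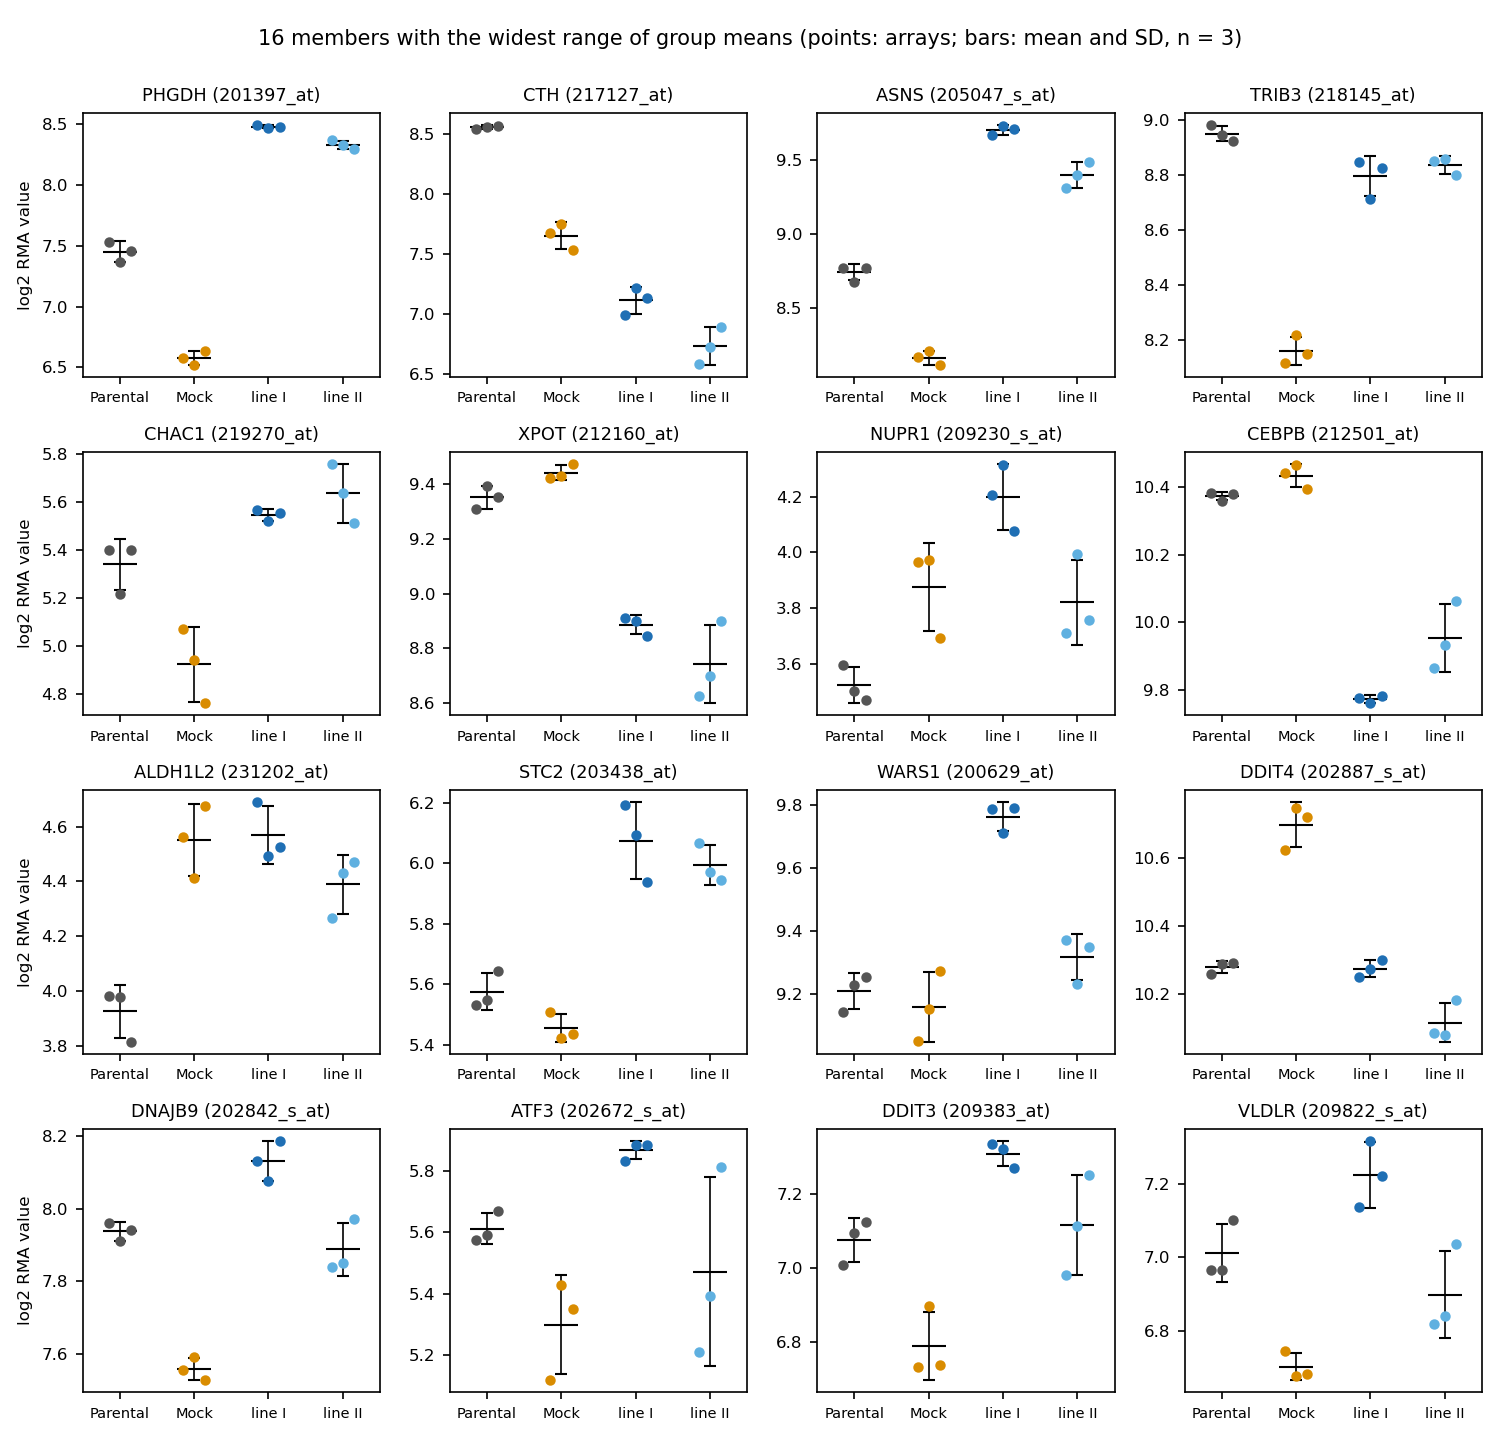
Deposited log2 value on each of the 12 arrays for the 16 members with the widest range of group means, with a point per array and the group mean and SD (n = 3). PHGDH and ASNS are lowest in Mock and highest in line I, TRIB3 and DNAJB9 are lowest in Mock, and CTH is highest in Parental and lowest in line II.

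The enzymes that use aspartate, cysteine precursors and glutamate moved in both directions. ASNS, which makes asparagine and is a classic target of ATF4, read 8.77, 8.68 and 8.77 in Parental, 8.17, 8.21 and 8.12 in Mock, 9.66, 9.73 and 9.71 in line I, and 9.31, 9.40 and 9.48 in line II. The 4 groups did not overlap, with the order Mock, Parental, line II and line I. ASNS rose by 1.53 (SE 0.06, limma adjusted p = 2.04e-09) in line I and by 1.23 (SE 0.06, limma adjusted p = 1.41e-08) in line II against Mock, and by 0.96 and 0.65 against Parental. These values come from a probe set whose suffix, _s_at, marks probes shared by several transcripts. The other ASNS set, 241082_at, had a mean of 2.13 and differed from Mock by 0.09 and 0.11 (limma adjusted p = 0.417 and 0.333).

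CTH, the gamma-lyase that releases cysteine from cystathionine, went the other way. Its values were 8.54, 8.56 and 8.57 in Parental, 7.68, 7.75 and 7.53 in Mock, 6.99, 7.21 and 7.13 in line I, and 6.58, 6.72 and 6.89 in line II. Each step in that order was without overlap. CTH fell by 0.54 (SE 0.09, limma adjusted p = 0.00055) in line I and by 0.92 (SE 0.09, 6.55e-06) in line II against Mock, by 0.90 in Mock against Parental (1.03e-05), and by 1.45 and 1.83 in the lines against Parental. Its other probe set, 206085_s_at, fell by 0.34 in line I (0.022), 0.65 in line II (0.000365) and 0.70 in Mock against Parental (0.000273). CBS, which makes cystathionine, differed from Mock by -0.09 and 0.05.

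PYCR1, the last enzyme of proline synthesis, was 0.26 higher in line I (limma adjusted p = 0.0267) and 0.33 higher in line II (0.00729) than in Mock. ALDH18A1, the first enzyme of the same pathway, was 0.20 lower in line I (0.0335) and 0.39 lower in line II (0.000562). The line I calls of these proline enzymes were weak: each ended without Mock replicate 1, without Mock replicate 2 or without any 1 of the line I arrays, at adjusted p of 0.0576 to 0.0928 for PYCR1 and 0.0699 to 0.102 for ALDH18A1. The ALDH18A1 call in line I also ended with quantile normalization, which gave -0.12 (0.16), with the replicate number as a block (0.0542) and without _x_at and _s_at probe sets (0.0504).

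Of the 8 transcription factors, 4 rose (50%) and 1 fell (12.5%) in line I, where 9.97% of all genes rose and 13.6% fell, so the share that fell was near that of all genes. In line II, 2 rose (25%) and 2 fell (25%), beside 11.0% and 15.1%. ATF4, the central factor, rose by 0.27 (SE 0.06, limma adjusted p = 0.00433) in line I and 0.32 (SE 0.06, 0.00145) in line II, and its Mock values of 10.09, 10.11 and 10.12 lay below all other arrays (10.34 to 10.51). DDIT3 (CHOP), a factor induced downstream of ATF4, read 7.01, 7.09 and 7.12 in Parental, 6.73, 6.90 and 6.74 in Mock, 7.34, 7.32 and 7.27 in line I, and 6.98, 7.11 and 7.25 in line II. Mock was again below the others, and line I was above all of them. DDIT3 rose by 0.52 (SE 0.08, limma adjusted p = 0.000234) in line I and by 0.33 (SE 0.08, 0.00666) in line II.

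ATF3, another stress-induced factor, read 5.58, 5.59 and 5.67 in Parental, 5.12, 5.43 and 5.35 in Mock, 5.83, 5.88 and 5.88 in line I, and 5.21, 5.39 and 5.81 in line II. Line I lay above the other groups, and the line II arrays were spread widely. In line I ATF3 rose by 0.57 (SE 0.12, limma adjusted p = 0.00452), which was not seen on the probe set 1554980_a_at, which differed by 0.12 (0.332), and ATF3 in line II differed from Mock by 0.17 (0.321). NUPR1, a small stress-induced nuclear protein, read 3.59, 3.50 and 3.47 in Parental, 3.96, 3.97 and 3.69 in Mock, 4.21, 4.31 and 4.08 in line I, and 3.71, 3.99 and 3.76 in line II. All these values are dim, and Parental was the lowest group. NUPR1 rose by 0.32 in line I against Mock (SE 0.10, limma adjusted p = 0.0262), a call that ended without Mock replicate 3, line I replicate 1 or line I replicate 2 (0.0676 to 0.108) and with quantile normalization (0.0812).

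CEBPB, a C/EBP factor that can dimerise with ATF4, was the transcription factor with the clearest fall. It read 10.38, 10.36 and 10.38 in Parental, 10.44, 10.46 and 10.40 in Mock, 9.78, 9.76 and 9.78 in line I, and 9.86, 9.93 and 10.06 in line II. Both lines lay below Parental and Mock without overlap. CEBPB fell by 0.66 (SE 0.06, limma adjusted p = 5.01e-06) in line I and by 0.48 (SE 0.06, 9.14e-05) in line II against Mock, and by 0.60 and 0.42 against Parental. XBP1, a factor of the ER stress response, fell by 0.40 in line II (0.00353), where its arrays read 8.81, 9.03 and 9.21, and differed from Mock by -0.07 in line I (0.565). ATF5 and CEBPG, further ATF and C/EBP family members, passed no test in any comparison.

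The 7 regulators and effectors of the stress response held several of the more marked changes. TRIB3, a pseudokinase induced by ATF4 and DDIT3, read 8.98, 8.95 and 8.92 in Parental, 8.12, 8.22 and 8.15 in Mock, 8.85, 8.71 and 8.83 in line I, and 8.85, 8.86 and 8.80 in line II. Mock stood well below the other groups, which lay close together. TRIB3 rose by 0.63 (SE 0.06, limma adjusted p = 5.48e-06) in line I and 0.67 (SE 0.06, 3.04e-06) in line II against Mock, and it differed from Parental by -0.15 (0.0952) and -0.11 (0.213). Its other probe set, 1555788_a_at, rose by 0.59 and 0.76. CHAC1, which degrades glutathione, read 5.40, 5.22 and 5.40 in Parental, 5.07, 4.94 and 4.76 in Mock, 5.57, 5.52 and 5.55 in line I, and 5.76, 5.64 and 5.51 in line II. Again Mock was lowest, and both lines lay above Parental. CHAC1 rose by 0.62 (SE 0.09, limma adjusted p = 0.000194) in line I and by 0.71 (SE 0.09, 7.89e-05) in line II.

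STC2, a secreted glycoprotein induced by stress, read 5.53, 5.55 and 5.65 in Parental, 5.51, 5.42 and 5.43 in Mock, 6.19, 6.09 and 5.94 in line I, and 6.07, 5.97 and 5.94 in line II. Both lines lay above both control groups. STC2 rose by 0.62 (SE 0.07, limma adjusted p = 3.72e-05) in line I and 0.54 (SE 0.07, 0.000145) in line II against Mock, and by 0.50 and 0.42 against Parental. VLDLR, a lipoprotein receptor whose transcription rises in ER stress, read 6.97, 6.97 and 7.10 in Parental, 6.75, 6.68 and 6.68 in Mock, 7.14, 7.32 and 7.22 in line I, and 6.82, 6.84 and 7.04 in line II. Line I was highest and Mock lowest. VLDLR rose by 0.52 (SE 0.07, limma adjusted p = 0.000207) in line I, and its difference of 0.20 in line II did not pass (0.0669).

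DDIT4 (REDD1), an inhibitor of the growth kinase mTORC1, fell instead. It read 10.26, 10.29 and 10.29 in Parental, 10.62, 10.75 and 10.72 in Mock, 10.25, 10.27 and 10.30 in line I, and 10.09, 10.08 and 10.18 in line II. Mock was above all other arrays. DDIT4 fell by 0.42 (SE 0.06, limma adjusted p = 0.00015) in line I and 0.58 (SE 0.06, 1.09e-05) in line II against Mock. SESN2, another inhibitor of mTORC1 signalling, differed from Mock by 0.05 and 0.08, and PPP1R15A (GADD34), which directs dephosphorylation of eIF2alpha, by 0.15 and 0.20, none of which passed.

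Of the 7 amino acid transporters, 4 rose (57.1%) and 1 fell (14.3%) in line I, beside 9.97% and 13.6% of all genes. In line II, 1 rose (14.3%) and 0 fell by limma, beside 11.0% and 15.1%, and an unadjusted p under 0.05 gave 2 higher and 0 lower. The fall in line I and the rise in line II were thus near the share of all genes. SLC7A11, the cystine importer, read 10.14, 10.21 and 10.22 in Parental, 10.06, 10.10 and 10.32 in Mock, 10.59, 10.56 and 10.62 in line I, and 10.24, 10.02 and 10.15 in line II. Line I lay above the other groups, which overlapped. SLC7A11 rose by 0.43 (SE 0.08, limma adjusted p = 0.00126) in line I and differed by -0.02 in line II (0.854), and the probe set 217678_at gave 0.41 (0.00171) and -0.12 (0.294). SLC38A2, which takes up small neutral amino acids, rose by 0.22 in line I (0.014), a call that ended without line I replicate 3 (0.0568). SLC1A4, a carrier of serine and alanine, rose by 0.21 in line I (0.0297), and this call ended without Mock replicate 2, Mock replicate 3 or line I replicate 1 (0.0704 to 0.128).

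SLC7A5, the light chain of the large neutral amino acid exchanger, fell by 0.27 in line I (limma adjusted p = 0.0107) and differed by 0.10 in line II (0.282). Its heavy chain SLC3A2 and the glutamine carrier SLC1A5 passed no test in any comparison. SLC6A9, a glycine transporter with dim values of 3.36 to 4.35, was 0.40 higher in line I (0.0395) and 0.46 higher in line II (0.0198). Its Mock arrays read 3.79, 3.36 and 4.01. The SLC6A9 call in line I ended without any 1 Parental array, any 1 line I array, Mock replicate 1 or Mock replicate 2 (0.05 to 0.144) and with quantile normalization (0.0736), and that in line II without Mock replicate 2 or line II replicate 1 (0.0623 to 0.0833).

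Of the 11 measured aminoacyl-tRNA synthetases and tRNA exporters, 3 rose in line I (27.3%) and 4 in line II (36.4%), beside 9.97% and 11.0% of all genes. In each line 1 fell (9.09%), below the 13.6% and 15.1% of all genes. The synthetases load tRNAs with their amino acids. WARS1, the tryptophan enzyme, read 9.14, 9.23 and 9.25 in Parental, 9.05, 9.15 and 9.27 in Mock, 9.79, 9.71 and 9.79 in line I, and 9.37, 9.23 and 9.35 in line II. Line I was above every other array. WARS1 rose by 0.60 (SE 0.07, limma adjusted p = 3.5e-05) in line I and differed from Mock by 0.16 in line II (0.109), while its other probe set 200628_s_at gave 0.62 (1.45e-05) and 0.23 (0.0222). SARS1, the serine enzyme, rose by 0.23 in line I (0.00531), although the mean of its probe sets gave 0.08 (0.36). CARS1, the cysteine enzyme, rose by 0.25 (0.00784, line I) and 0.34 (0.00106, line II), and the mean of its probe sets in line I gave 0.08 (0.328).

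In line II the alanine enzyme AARS1 rose by 0.31 (limma adjusted p = 0.00401), the tyrosine enzyme YARS1 by 0.30 (0.00314) and the glycine enzyme GARS1 by 0.23 (0.0202). The GARS1 call ended without Mock replicate 1 or Mock replicate 2 (0.0519 to 0.0855), and YARS1 without _s_at and _x_at probe sets gave 0.06 (0.704). EPRS1, IARS1 and NARS1 passed in none of the 6 comparisons, and TARS1 differed from Mock by 0.03 and 0.02. XPOT, which exports tRNA from the nucleus, read 9.31, 9.39 and 9.35 in Parental, 9.42, 9.43 and 9.47 in Mock, 8.91, 8.90 and 8.85 in line I, and 8.62, 8.70 and 8.90 in line II. Both lines lay below both control groups. XPOT fell by 0.56 (SE 0.07, limma adjusted p = 7.57e-05) in line I and by 0.70 (SE 0.07, 1.12e-05) in line II against Mock, by 0.47 and 0.61 against Parental, and its other probe set 227117_at by 0.36 and 0.41 against Mock.

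Of the ER genes, DNAJB9 moved and HSPA5 did not pass. DNAJB9, a co-chaperone of HSPA5, read 7.96, 7.91 and 7.94 in Parental, 7.56, 7.59 and 7.53 in Mock, 8.13, 8.08 and 8.19 in line I, and 7.84, 7.85 and 7.97 in line II. Mock was lowest and line I highest. DNAJB9 rose by 0.57 (SE 0.06, limma adjusted p = 1.44e-05) in line I and by 0.33 (SE 0.06, 0.0014) in line II, and without _s_at and _x_at sets the line II value was 0.19 (0.226). HSPA5 (BiP), the main ER chaperone, differed by -0.06 and -0.13 and passed in none of the 6 comparisons. HERPUD1, which takes part in ER-associated degradation, differed by 0.04 and -0.05 on its representing set, while the dim set 1569380_a_at was 0.38 (0.0201) and 0.34 (0.0321) higher. The promoters of XBP1 at chr22:28800587-28800637 (minus strand) and HSPA5 at chr9:125241375-125241425 (minus strand) hold the ER stress element (CCAAT, 9 bases of any kind, then CCACG, searched on both strands), shown in capitals because these are the 2 of 42 members with it (4.76%), beside 0.0916% of all genes in the table.
XBP1: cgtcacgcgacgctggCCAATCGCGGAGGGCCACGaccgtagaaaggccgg
HSPA5: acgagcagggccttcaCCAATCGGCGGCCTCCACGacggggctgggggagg

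**Figure D3:**
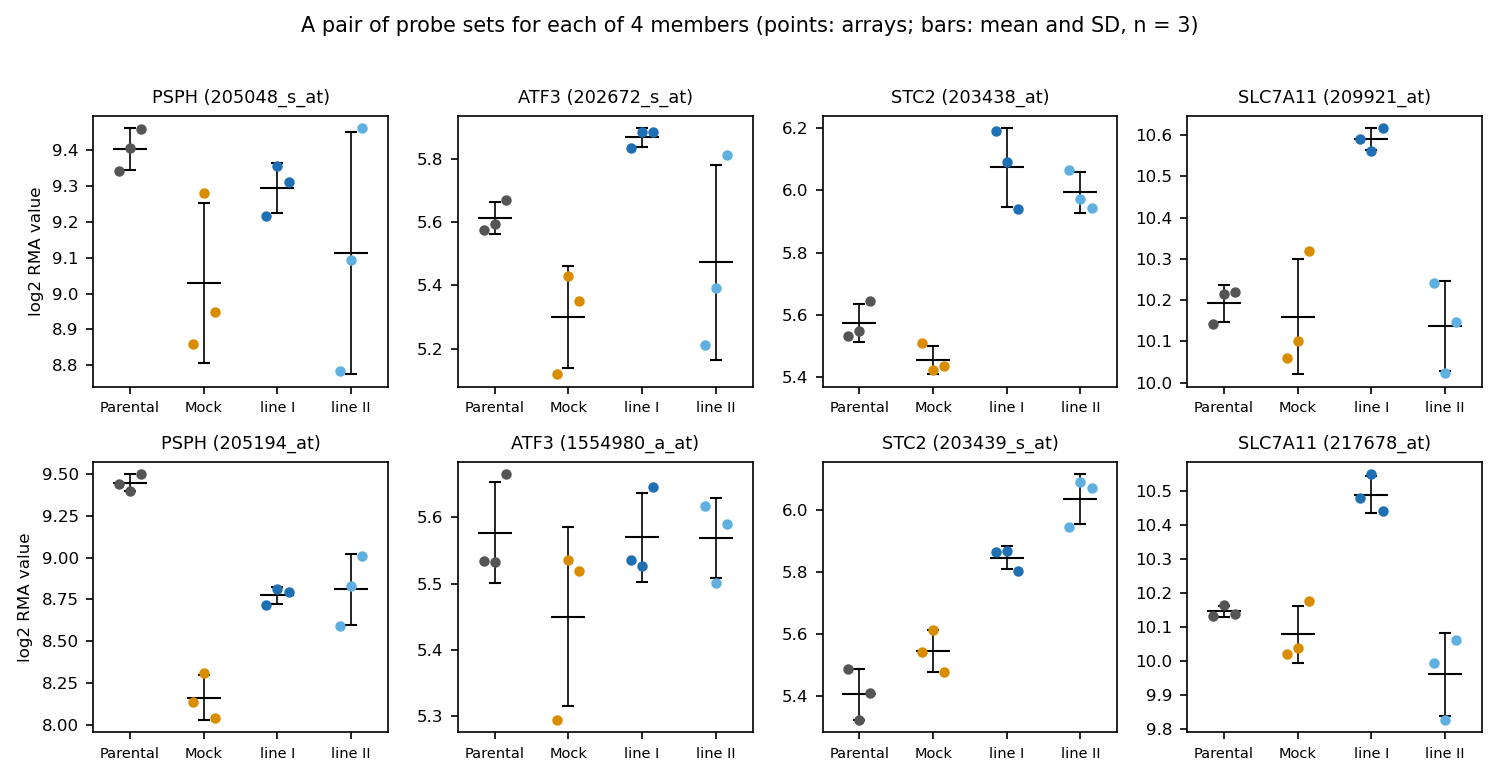
Deposited log2 values on each array for pairs of probe sets of PSPH, ATF3, STC2 and SLC7A11, with the group mean and SD (n = 3). The PSPH sets differ in how far Mock lies below the other groups, the ATF3 sets differ in line I (0.57 and 0.12 above Mock), and the STC2 sets (0.62 and 0.30) and SLC7A11 sets (0.43 and 0.41) are both above Mock in line I.

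The Mock arrays themselves differed from Parental in this gene set. PHGDH, TRIB3, ASNS, CHAC1, ATF4, CARS1 and DNAJB9 were lower in Mock. Of 49 members, 13 fell (26.5%) where 5.23% of all genes did, and 4 rose (8.16%) where 9.78% did. The falls were led by CTH (-0.90), PHGDH (-0.87), TRIB3 (-0.79, limma adjusted p = 9.51e-07), ASNS (-0.57, 3.02e-05), CHAC1 (-0.41, 0.00561) and DNAJB9 (-0.38, 0.000683). CARS1 (-0.35, 0.00134), VLDLR (-0.31, 0.0122), ATF4 (-0.30, 0.00328), DDIT3 (-0.29, 0.0199), SESN2 (-0.28, 0.0361), TARS1 (-0.23, 0.0352) and HERPUD1 (-0.18, 0.0374) were the other 7. The 4 that rose were ALDH1L2 (0.62), DDIT4 (0.42, 0.000255), ALDH18A1 (0.35, 0.00181) and NUPR1 (0.35, 0.024). Brighter genes as a whole rose more often in Mock. In the fit of the 8348 genes with a mean log2 of at least 6, 838 fell and 2272 rose. Among the members in that fit, 14 fell and 5 rose.

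Among the 4 groups, Mock had the lowest mean for 23 of 49 members (46.9%), and it had the lowest mean for 32.7% of all genes. The number of members lower in Mock was 8 without Parental replicate 3, and with arrays centred on their medians 9 were lower and 6 higher, so the share of higher members among those that passed went from 23.5% to 40%. Of all 19775 genes, 1034 were lower and 1934 higher in Mock in the main fit. Without Parental replicate 3 the lower genes numbered 760, and centring gave 793 lower and 2406 higher. The calls of DDIT3, NUPR1, SESN2, VLDLR, TARS1 and HERPUD1 each ended without at least 1 array. The arrays concerned were Parental 2, Parental 3, Mock 1 and Mock 3 for DDIT3 (adjusted p 0.0637 to 0.0774), and Parental 2, Parental 3, Mock 1 and Mock 2 for NUPR1 (0.0724 to 0.0937). VLDLR lost its call without Parental 3 (0.0611), and TARS1 without any 1 Parental or Mock array (0.0591 to 0.119). SESN2 lost it without any 1 Parental array, Mock 1, Mock 3 or line I 2 (0.0503 to 0.125), and HERPUD1 without any 1 Parental or Mock array, line I 1 or line I 3 (0.0511 to 0.117). The Mock arrays had the widest interquartile range, as given above, and quantile normalization, which makes the ranges equal, left 14 members lower and 4 higher in Mock than in Parental, 20 higher and 5 lower in line I than in Mock, and 20 higher and 6 lower in line II than in Mock. With it, 1192 of all 19775 genes were lower and 1444 higher in Mock than in Parental. Against Mock, 2117 genes were higher and 1827 lower in line I, and 2255 and 1872 in line II.

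Both lines were also compared with the same Parental arrays. PHGDH, ASNS and STC2 rose in each line, with the values given above, and CTH, CEBPB and XPOT fell in each. In line I, 13 of 49 members rose (26.5%) where 8.25% of all genes did and 4 fell (8.16%) where 8.56% did. In line II, 9 rose (18.4%) where 7.47% of all genes did and 6 fell (12.2%) where 9.48% did. In line I the median difference over members was 0.00, and in line II 0.04, beside 0.02 and 0.02 over all genes. In the fit of the 8348 genes with a mean log2 of at least 6, 1571 rose and 1827 fell in line I. In line II 1316 rose and 1977 fell. Among the members in that fit, 12 rose and 8 fell in line I, and 8 rose and 7 fell in line II. ALDH1L2 was 0.64 (limma adjusted p = 0.000144) and 0.46 (0.00218) above Parental, and NUPR1 0.68 (0.000228) and 0.30 (0.0486). ATF4 differed from Parental by -0.03 and 0.02 and did not pass, and neither did TRIB3, as given above.

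Against Parental in line I, the test was also passed by WARS1 (0.55, limma adjusted p = 7.89e-05), SLC7A11 (0.40, 0.00249), SLC1A4 (0.28, 0.00938), DDIT3 (0.24, 0.0475), SARS1 (0.23, 0.00751), SLC38A2 (0.20, 0.029) and DNAJB9 (0.19, 0.0376), and SLC7A5 fell by 0.25 (0.0225). In line II CHAC1 (0.30, 0.0335), YARS1 (0.28, 0.00674) and CBS (0.27, 0.0239) rose, and XBP1 (-0.36, 0.00971), HERPUD1 (-0.24, 0.00902) and TARS1 (-0.21, 0.0451) fell. PPP1R15A was higher in both, by 0.24 (0.0404) and 0.29 (0.0181). Without Parental replicate 3 the members higher in line II numbered 5, beside 877 of all genes (1478 with every array). The calls against Parental of DDIT3, PPP1R15A, SLC7A5, SLC1A4, SLC38A2 and DNAJB9 in line I, and of CBS, NUPR1, CHAC1, PPP1R15A and TARS1 in line II, ended in at least 1 leave-one-out fit, at adjusted p between 0.0501 and 0.187. With centred arrays 6 members rose and 6 fell in line II, a share of higher members of 50% in place of 60%. The same centring gave 972 higher and 2155 lower among all 19775 genes, where the main fit gave 1478 and 1875.

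The lines were also compared with each other directly. Here 9 of 49 members (18.4%) were higher in line I, beside 4.66% of all genes, and 2 (4.08%) were lower, beside 2.48%. The cystine importer SLC7A11 (0.45, limma adjusted p = 0.003), WARS1 (0.45, 0.00166), CTH (0.38, 0.0172), NUPR1 (0.38, 0.0299), XBP1 (0.33, 0.0297), VLDLR (0.32, 0.0173), ASNS (0.30, 0.00933), SLC1A4 (0.25, 0.0384) and DNAJB9 (0.24, 0.0239) were higher in line I. SLC7A5 (-0.37, 0.00447) and YARS1 (-0.39, 0.00185) were lower. PHGDH differed by 0.15 (SE 0.06, 0.193) and did not pass. The 9 became 5, 4 and 4 without line I replicates 1, 2 and 3, and 3 and 4 without line II replicates 1 and 2, with the calls of CTH, NUPR1, XBP1, VLDLR, SLC1A4 and DNAJB9 among those lost (0.0537 to 0.165). Counts over all 19775 genes fell in the same fits. The 922 genes higher in line I became 511, 529 and 652 without the line I replicates, and 644 and 576 without those of line II. In the fit of the 8348 genes with a mean log2 of at least 6, 1157 were higher and 740 lower in line I. Among the members in that fit, 10 were higher and 3 lower.

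A total of 14 members (28.6%) passed in none of the 6 comparisons, beside 56.3% of all genes. They were PSAT1, PSPH, SHMT1, SHMT2, MTHFD2, MTHFD1L, ATF5, CEBPG, SLC3A2, SLC1A5, EPRS1, IARS1, NARS1 and HSPA5, each read on its representing probe set. The 56.3% was not matched to the members by brightness, and most members lay in the brighter 50% of genes. In a fit of those 9887 genes, 1400 rose and 3086 fell in line I against Mock. Over all 19775 genes the counts were 1972 and 2698. PSPH and SHMT2 passed on another probe set, as given above, and so did EPRS1 in Mock against Parental, where 200843_s_at was 0.24 higher (limma adjusted p = 0.03). PSPH, SLC3A2, SLC1A5, EPRS1, IARS1 and HSPA5 passed in at least one comparison on their representing set under at least one of the alternative filters, normalizations or variance models.

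Other genes of the same pathways were counted from lists of the remaining family members. These lists, and those given at the end, were not matched to all genes by brightness. Of 21 measured further targets of ATF4 and of eIF2alpha phosphorylation, 6 rose (28.6%) and 0 fell in line I by limma (2 were lower at an unadjusted p under 0.05), beside 9.97% and 13.6% of all genes. In line II, 3 rose (14.3%) and 6 fell (28.6%), beside 11.0% and 15.1%. PCK2, the mitochondrial enzyme that makes phosphoenolpyruvate, rose by 1.08 for line I (limma adjusted p = 8.38e-07) and 0.66 for line II (8.05e-05), PMAIP1 (NOXA), a death-promoting BCL2 relative, by 0.60 (4.09e-05) and 0.42 (0.000909), and EIF4EBP1, a repressor of cap-dependent translation, by 0.39 (0.000404) and 0.57 (1.66e-05). GDF15, a stress-induced secreted factor, rose by 0.43 in line I (0.00544) and differed by -0.05 in line II (0.754). SESN3, a relative of SESN2, fell by 0.59 in line II (0.00118) and differed by -0.10 in line I (0.542). This list had a median of 0.05 (line I) and -0.05 (line II), beside the 0.02 of all genes. Of 18 other serine, glycine and folate genes, 1 rose (5.56%) and 5 fell (27.8%) in each line, beside 9.97% and 11.0% of all genes that rose and 13.6% and 15.1% that fell. TYMS, thymidylate synthase, fell by 0.47 in line I (5.32e-05), and MTR, methionine synthase, by 0.39 (0.00868) and 0.49 (0.00223).

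Synthetases outside the member list were counted in the same way, beside falls in 13.6% (line I) and 15.1% (line II) and rises in 9.97% and 11.0% of all genes. In a fit of the 8348 genes with a mean log2 of at least 6, falls were more frequent. There 2938 fell and 1152 rose in line I, and 3051 fell and 897 rose in line II. Of 15 mitochondrial synthetases, 5 fell (33.3%) and 0 rose in line I by limma (0 were higher at an unadjusted p under 0.05), and 6 fell (40%) and 1 rose (6.67%) in line II, led by EARS2 (-0.51, limma adjusted p = 5.05e-05, and -0.36, 0.000909). Of 8 other cytosolic synthetases and partners, 4 fell (50%) and 1 rose (12.5%) in line I, and 1 fell and 1 rose (12.5% each) in line II. Of 21 other genes of the unfolded protein response, 6 fell in line I (28.6%) and 9 in line II (42.9%), and 0 rose in line I by limma (1 was higher at an unadjusted p under 0.05) and 1 in line II. CRELD2, an ER stress-induced secreted protein, fell by 0.61 (6.67e-06) and 0.57 (1.31e-05), and PDIA4, a disulfide isomerase, by 0.28 (0.0182) and 0.48 (0.000764).

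The match to the C/EBP-ATF letters did not sort the members by whether they passed. It was present in ASNS, at positions -68 to -61 from the start, and in CHAC1, at -209 to -202, which rose in each line, and in CARS1, across the start. PHGDH, TRIB3, DDIT3 and STC2, which also rose in each line against Mock, had a window in the table and no match in it, which says only that these letters are not in those 300 bases. CEBPG, SLC1A5, IARS1, MTHFD1L, NARS1 and SLC3A2 had a match and passed in none of the 6 comparisons. MTHFD1L was read on a dim probe set in place of the brighter ones with several symbols, SLC3A2, SLC1A5 and IARS1 passed under some alternatives as given above, and in NARS1 and SLC3A2 the match lies after the start.

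**Figure D4:**
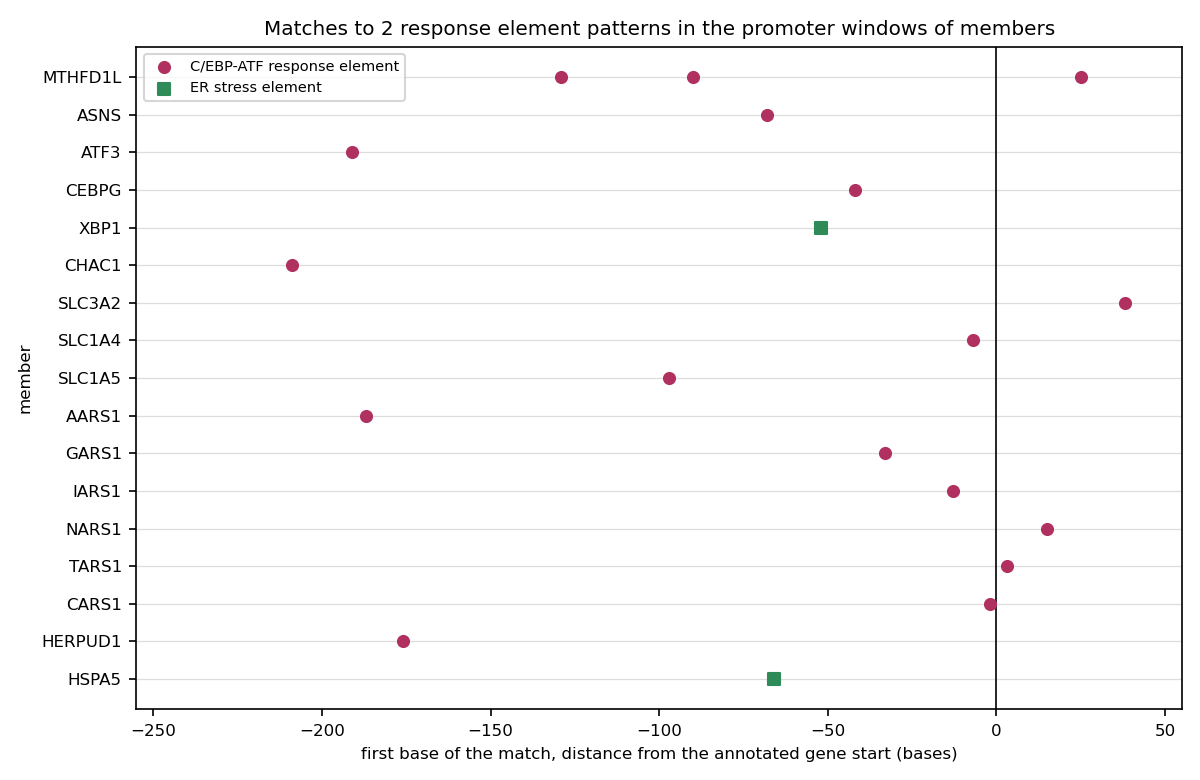
Distance in bases from the transcription start of each match to the C/EBP-ATF letters or the ER stress element in the promoter windows of the members, from 250 bases before to 50 after the start. The ASNS match begins at -68 and the CHAC1 match at -209.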

How the data were processed

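RNA of IGROV-1 cells was measured on 12 arrays in 4 groups of 3. The deposited values, 1 for each probe set on each array, are log2 intensities that the authors computed by RMA under R 2.6.0, per the submitters' processing notes. Not given in the sources used here were the chip definition and background settings, and no further normalization was applied. RMA makes array distributions more alike, so a shift shared by most genes may be reduced or not show. The deposited values still differed between arrays in median and interquartile range, as given above.

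Of 54675 annotated probe sets, 41097 name a single gene, 1801 name more than 1 and 11777 name none. Of the first, 41043 matched the gene name table by Entrez number. Each of 19775 genes was represented by the brightest such probe set on average. The test was limma 3.58.1 under R 4.3.3, with group means fitted by lmFit on every array, moderated by eBayes (prior degrees of freedom 5.19, residual 8), with Benjamini-Hochberg adjustment over all genes and a threshold of 0.05. Where several probe sets of a member are given, the adjustment ran over every single-symbol probe set. The script was tested on simulated data.

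All members are described by role, the 16 with the widest range of group means with every array, and at most 3 genes of a related list by size of change among those past the test in a comparison. Members and lists were chosen with earlier results of these data known. Same-numbered arrays did not deviate together (correlations -0.109 to 0.148), so no block was used. Alternatives were probe set choice, filters on dim genes, normalization, variance model, array weights, samples in the fit, a replicate block and leaving out each array. The number of arrays limits the precision.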

Additional observations from a re-analysis of the deposited data

Results flagged for a closer look

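The lines differed from each other in 11 members, by limma's test of the difference itself, so each differed from the shared Mock arrays by an unequal amount in the lines. The log2 difference of line I from line II was 0.45 for SLC7A11, 0.45 for WARS1, 0.38 for CTH, 0.38 for NUPR1, 0.33 for XBP1, 0.32 for VLDLR, 0.30 for ASNS, 0.25 for SLC1A4 and 0.24 for DNAJB9. It was -0.37 for SLC7A5 and -0.39 for YARS1. SLC7A11 and WARS1 were above all other arrays in line I on their representing probe sets, while YARS1 was above all other arrays in line II. Once _x_at and _s_at probe sets were left out, the YARS1 difference was -0.12 (limma adjusted p = 0.556). When the probe sets of a gene were averaged, the difference was 0.15 (0.112) for ASNS, 0.17 (0.163) for XBP1, 0.10 (0.43) for SLC1A4 and 0.29 (0.0529) for DNAJB9. The difference between the lines and their origin as individual clones cannot be told apart.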

How the results depend on the processing

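Of 294 member results (49 members in 6 comparisons), 105 passed the test. Under at least 1 alternative 49 results lost their call or turned direction, of which 3 only in a leave-one-out fit. Among the 49 is HERPUD1, line II against Mock, which had not passed in the main fit (limma adjusted p = 0.502). A member left out of a fit by a filter or by probe set choice was not tested there. A call was therefore not always put to every alternative. With the replicate block 99 calls were made, 8 were lost and 2 gained, and no count of members moved by over 1.5 times. The labels do not say what the replicate numbers stand for. In deviation from the group mean, 2 of 12 arrays correlated best with an array of their own number. Without _x_at and _s_at probe sets the direction turned for HERPUD1, line II against Mock (0.34, limma adjusted p = 0.0277), for ASNS, line I against line II (-0.012, 0.959), and for HERPUD1, line II against Parental (0.11, 0.521), where another, dimmer probe set took the place of the first. The same choice left 3 members down in line I against Mock, 2 up in Mock against Parental, 4 up and 0 down in line I against line II (with limma), and 6 up in line I against Parental. Among the 17100 genes left by it, those counts were 1804, 1349, 596 and 269, and 1145. Members whose probe sets all end in _x_at or _s_at were not tested under this choice, so its member counts cover fewer than 49 members. With trended and robust variance 7 members were up in Mock against Parental and 8 down in line I against Parental, beside 2399 and 2022 of all 19775 genes. The last count was also 8 with a mean log2 of at least 6, with the upper 50% of genes and with array weights. In that order, 1827 of 8348, 1907 of 9887 and 2256 of 19775 genes were down there. Members up in line I against line II numbered 5 with the mean of all probe sets and 3 with only the groups compared, beside 737 and 526 of all genes. Leaving out 1 array at a time gave 15 to 19 members up and 5 to 6 down in line I against Mock, 12 to 14 up and 6 down in line II against Mock, 3 to 4 up and 8 to 15 down in Mock against Parental, 3 to 11 up and 2 down in line I against line II, 9 to 15 up and 3 to 5 down in line I against Parental, and 5 to 10 up and 5 to 9 down in line II against Parental. Counts over all genes moved in these fits too. Genes up in line I against line II numbered 511 to 1206 (922 with every array). Genes down in Mock against Parental numbered 760 to 1196 (1034 with every array). The causes were not tested. Signal on the probe sets used limits SHMT1, MTHFD1L, NUPR1, SLC6A9 and ALDH1L2, whose group means lay near or below the array medians, and RNA levels say nothing of ATF4 protein.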

Other observations

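Amino acid transporters outside the member list held some of the wider differences of these pathways. SLC6A6, the taurine transporter, fell by 0.81 (limma adjusted p = 6.57e-07) in line I and by 1.33 (4.52e-09) in line II against Mock, and was 0.58 higher in Mock than in Parental (1.95e-05). SLC1A1, a glutamate and cysteine carrier, rose by 0.46 (0.000238) and 0.50 (0.000178) against Mock and was -0.82 in Mock against Parental (2.59e-06). SLC7A2, a carrier of cationic amino acids, fell by 0.68 in line II (2.33e-05), and its difference of 0.18 in line I did not pass (0.0949). The lines differed from each other in SLC7A2 by 0.86 (1.17e-05). Of 16 such transporters, 2 rose (12.5%) and 3 fell (18.8%) in line I, near the 9.97% and 13.6% of all genes, and 2 rose (12.5%) and 5 fell (31.2%) in line II, beside 11.0% and 15.1%.

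Of 16 genes for the eIF2alpha kinases, their phosphatase and partners, 0 rose and 2 fell (12.5%) in line I by limma (2 were higher at an unadjusted p under 0.05), beside 9.97% and 13.6% of all genes, and 1 rose (6.25%) and 4 fell (25%) in line II, beside 11.0% and 15.1%. EIF2AK4 (GCN2), the kinase that senses uncharged tRNA, differed from Mock by 0.09 and 0.01 and was -0.46 in Mock against Parental (0.00325). EIF2B5, a subunit of the exchange factor that phosphorylated eIF2alpha blocks, fell by 0.37 (0.00185, line I) and 0.26 (0.0156, line II).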
